A study of Mus musculus with 2 samples.

Results

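The promoters of the mitochondrial ribosomal protein genes were examined in single-cell ATAC-seq data from embryonic mouse back skin. Members were all protein-coding genes of the mouse GENCODE annotation whose symbols begin with Mrpl or Mrps followed by a digit, which gave 78 genes, 49 Mrpl and 29 Mrps, on 17 chromosomes. The rule uses symbols only and no measured value. All 78 had a promoter region with a peak called in both libraries, among 15877 of 21853 protein-coding genes (72.7%) that had one.

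ATAC-seq marks open chromatin by the sites at which the transposase Tn5 cuts DNA. There was 1 library from Control skin and 1 from MOF cKO skin, both at E16.5. By the labels, the MOF cKO skin was MOFfl/fl/K14Cre, in which Cre under the Krt14 promoter acts on floxed Kat8, the gene of the acetyltransferase MOF, in epithelial cells. The Control genotype is labelled Control with no alleles given. In both, cells with the K14-H2BGFP label of epithelial cells and cells without it had been sorted and recombined, at 5:1 by the labels, although the study's text gives other ratios. With 1 library per genotype nothing was tested between genotypes. The 95% intervals given here cover counting error only, not differences between embryos or library preparations.

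The mitochondrial ribosome translates the few proteins encoded by mitochondrial DNA, which are core subunits of the respiratory chain and the ATP synthase. Its RNAs are made in the mitochondrion, whereas all of its proteins are encoded in the nucleus, made in the cytosol and imported. The large subunit (Mrpl) joins amino acids into a chain and passes it to the inner membrane, and the small subunit (Mrps) binds and decodes the mRNA. The genes are used in nearly all cells, and their promoters are typically rich in CpG and short of a TATA box.

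Sequence features, which the choice by name did not use, were set beside those of other promoters. Motifs were searched on both strands in the 250 bases before and 50 bases after the main start site of each gene. The ETS core CCGGAAG was found in 29 of 78 members (37.2%, exact binomial interval 26.5 to 48.9) and in 2449 of 21853 protein-coding promoters (11.2%). Since 70 of 78 members (89.7%) had an observed to expected CpG ratio above 0.6, against 46.8% of all promoters, the CpG-rich promoters are the closer background, and 19.5% of those held the core. Among cytosolic ribosomal protein genes 28.2% held it, and among respiratory chain (ETC) and ATP synthase genes 18.5%. Of the 33 matches in members, 21 began before the start site, and 19 of these lay within 100 bases of it. The core stood in 17 large and 12 small subunit genes.

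The letters GCGCATGC, the centre of the site known for NRF1, a regulator of nuclear genes for mitochondrial proteins, were found in 8 members (10.3%), 3.75% of all promoters and 6.21% of CpG-rich ones. Among ETC and ATP synthase genes 9.88% held them, close to the members' share, and among cytosolic ribosomal protein genes 5.13%. The letters AAGATGGCG, known for YY1, were found in 8 members (10.3%), 1.86% of all promoters, 3.55% of CpG-rich ones, 4.94% of ETC and ATP synthase genes and 5.13% of cytosolic ribosomal protein genes, and 6 of those 8 matches began at or after the start site. The ETS core occurred with the NRF1 letters in 4 members and with the YY1 letters in 3, at separate places. Overlapping matches of different motifs were found in 2 members, 1 with ETS and GGGCGG and 1 with CCAAT and GTTGCCA. In contrast, GGGCGG (47.4% of members, 45.5% of all), CCAAT (34.6% and 38.6%), TGACGTCA (2.56% and 2.49%) and TATAAA (8.97% and 12.5%) were about as common in members as in all promoters or less so. The GC content of the windows was also similar, with medians of 57.7% and 56.0%. The letters GTTGCCA, part of the X-box to which RFX factors bind, were found in 2 members (2.56%) and 4.21% of all promoters, again without a CpG-rich share. In all, 38 members held an ETS, NRF1 or YY1 match and 40 held none. The share of other promoters with any of these was not computed, so this count is a description only.

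**Figure D1:**
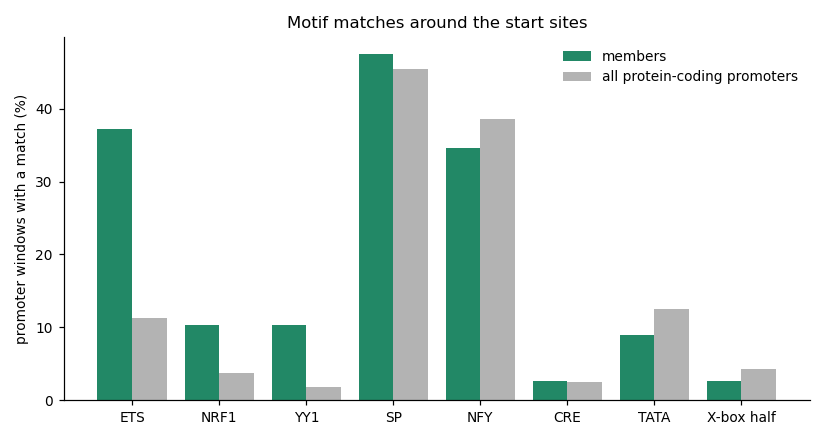
Share of promoter windows (percent, y axis) that held each motif (x axis), for the 78 members (green bars) and all 21853 protein-coding promoters (grey bars). The ETS, NRF1 and YY1 bars of the members (37.2%, 10.3% and 10.3%) are above those of all promoters (11.2%, 3.75% and 1.86%), of which the CpG-rich ones, not drawn, held 19.5%, 6.21% and 3.55%. The SP, NFY, CRE and TATA bars are close, and no CpG-rich share was computed for them.

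The following stretches show such matches in place. Each is the 150 bases before the start site, 5′ to 3′ on the gene's own strand, in GRCm38.p6 as held by RefSeq, which overlap no annotated exon. Capitals mark the ETS core in Mrpl22, Mrps22 and Mrpl34 and the NRF1 letters in Mrpl22 and, as the reverse complement, in Mrps28. These genes were picked with their values known. Mrpl22 holds both kinds and had 17.5 CPM in epithelial-like cells of Control and 13.4 in those of MOF cKO (units are given below), Mrpl34 had 46.3 and 33.1, and Mrps28 was the member with the smallest decrease described below.
Mrpl22, chr11:58171511-58171660 (+): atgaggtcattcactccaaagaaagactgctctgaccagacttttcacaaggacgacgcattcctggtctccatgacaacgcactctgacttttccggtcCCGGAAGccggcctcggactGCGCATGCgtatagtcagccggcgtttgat
Mrps22, chr9:98601661-98601810 (-): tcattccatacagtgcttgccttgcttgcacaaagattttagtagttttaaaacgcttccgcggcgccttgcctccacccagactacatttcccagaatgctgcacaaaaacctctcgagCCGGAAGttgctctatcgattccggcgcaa
Mrpl34, chr8:71464809-71464958 (+): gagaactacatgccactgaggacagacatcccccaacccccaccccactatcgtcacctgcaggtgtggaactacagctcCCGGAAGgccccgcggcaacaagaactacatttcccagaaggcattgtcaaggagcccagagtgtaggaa
Mrps28, chr3:8923919-8924068 (-): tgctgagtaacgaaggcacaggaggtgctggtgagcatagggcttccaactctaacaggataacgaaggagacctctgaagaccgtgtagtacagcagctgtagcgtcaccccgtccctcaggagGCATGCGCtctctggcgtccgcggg

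The next stretches belong to members at both ends of the range of change and are shown because no ETS, NRF1 or YY1 letters lie in them. Mrps23 holds its ETS core after the start site, outside the stretch printed. Mrps23 and Mrpl24 were among the 5 members with the largest decreases and Mrpl12 among the 5 with the smallest.
Mrps23, chr11:88204238-88204387 (+): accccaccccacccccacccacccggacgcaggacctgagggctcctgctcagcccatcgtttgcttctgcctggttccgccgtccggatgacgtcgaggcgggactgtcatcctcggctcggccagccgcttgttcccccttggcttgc
Mrpl24, chr3:87919356-87919505 (+): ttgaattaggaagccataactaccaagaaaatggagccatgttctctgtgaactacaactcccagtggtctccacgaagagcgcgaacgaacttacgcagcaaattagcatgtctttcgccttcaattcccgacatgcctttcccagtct
Mrpl12, chr11:120484463-120484612 (+): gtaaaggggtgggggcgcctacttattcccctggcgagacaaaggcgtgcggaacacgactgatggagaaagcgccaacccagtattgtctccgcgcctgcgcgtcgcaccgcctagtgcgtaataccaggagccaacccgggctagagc

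Many members faced another gene. The start site of another protein-coding gene on the opposite strand lay within 1000 bases before, or under 100 bases after, that of 24 members (30.8%), against 7.41% of all promoters and 13.9% of CpG-rich ones. It did so for 25.9% of ETC and ATP synthase genes and 11.5% of cytosolic ribosomal protein genes. 3 of the partners are picked here for their known roles in mitochondria, and no share of such partners was computed. Mrps12, which encodes a protein of the decoding centre, faced Sars2, the mitochondrial seryl-tRNA synthetase. Mrpl43 faced Twnk, the helicase that unwinds mitochondrial DNA, and Mrpl36 faced Ndufs6, a subunit of respiratory complex I. One pair joined both subunits: Mrpl46 and Mrps11 start 30 bases apart on chromosome 7, in opposite directions, at positions 78783089 and 78783119. The bases between their start sites show how little sequence separates them:
Mrpl46 to Mrps11, chr7:78783090-78783118 (+): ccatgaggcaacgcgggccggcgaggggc
In all, 34 members had a region that also served another protein-coding gene, and there the accessibility of the partners cannot be told apart. Mrpl46 and Mrps11 therefore have one and the same value, and the 78 members rest on 77 separate measurements.

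The peaks near the member start sites were alike in the libraries. There were 84 such peaks in Control, with a median width of 892.5 bp, and 89 in MOF cKO, with a median of 892 bp. The main start site lay inside a peak of each library for 77 of 78 members. The exception was Mrpl1, whose nearest peak lay 131 bp (Control) and 138 bp (MOF cKO) away. Of the members, 72 had 1 shared region, and 6 had more, whose sites were summed.

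Cells were grouped by their accessibility and named from promoters of marker genes. There were 1698 epithelial-like cells in Control and 2644 in MOF cKO, and 596 and 1215 fibroblast-like cells. The Control library holds more barcodes than the study counts as cells, so the Control classes include barcodes beyond that count. The median barcode had 62973 sites in Control and 66239.5 in MOF cKO, over all barcodes. The epithelial-like cells of the libraries fell almost wholly into different clusters, with 769, 509, 322 and 96 Control cells in 4 and 1214, 718, 580 and 79 MOF cKO cells in 4 others, and in each 10 to 12 of 12 epithelial markers were raised. The Control cluster of 322 cells was shallow, with a median of 2651 sites, and that of 96 cells was deep and also had 4 of 10 fibroblast markers raised. 13 barcodes occurred in both libraries. Levels are counts per 1000000 sites (CPM), of all sites of the class in regions shared by the libraries, and a change is log2(MOF cKO / Control) of CPM. On this scale promoters as a whole were lower in MOF cKO epithelial-like cells. They held 37.9% of the sites in Control and 28.8% in MOF cKO, and the median change of all promoters was -0.42. In fibroblast-like cells they held 41.9% and 40.8%, and the median change was -0.03. The promoter of the targeted gene, Kat8, had 48.8 and 36.7 CPM in epithelial-like cells, which does not check the deletion, since a promoter can stay open when exons are removed.

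Member promoters were open in Control epithelial-like cells at a median of 27.8 CPM per kb, against 20.7 for all promoters, a ratio of 1.34. CpG-rich promoters had a median of 27.3 CPM per kb, close to that of the members, ETC and ATP synthase genes 30.2 and cytosolic ribosomal protein genes 37.4. Of the 78, 59 lay above the median of all promoters and 9 above its 90th percentile. The highest level per kb belonged to Mrps18b, one of the paralogs of a single bacterial small subunit protein, with 92.9 CPM per kb in Control and 65.2 in MOF cKO. Next came Mrpl18, of the central protuberance, with 85.0 and 62.5 CPM per kb, and Mrpl17, at the exit of the peptide tunnel, with 82.3 and 59.3 CPM per kb. These 3 were above the 98th percentile of all promoters in Control, and the region of Mrps18b also serves Ppp1r10 and that of Mrpl18 also Tcp1.

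The lowest levels per kb were those of Mrpl3, a conserved protein near the peptidyl transferase centre, with 7.33 CPM per kb in Control and 4.42 in MOF cKO. Mrpl53 had 9.19 and 6.46 CPM per kb, and Mrpl13 had 9.47 and 6.82 CPM per kb over its 2 regions. The order of levels was nearly the same in the other cell class. Across the 78 genes, the Spearman correlation of level per kb between epithelial-like and fibroblast-like cells of the Control library was 0.95, and between Control and MOF cKO epithelial-like cells it was 0.98. These are correlations across genes, which share region length and base composition, and over all 15877 promoters they were 0.92 and 0.97. In Control, 75 of 78 members were within 1.5-fold between the cell classes, against 69.4% of all promoters.

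**Figure D2:**
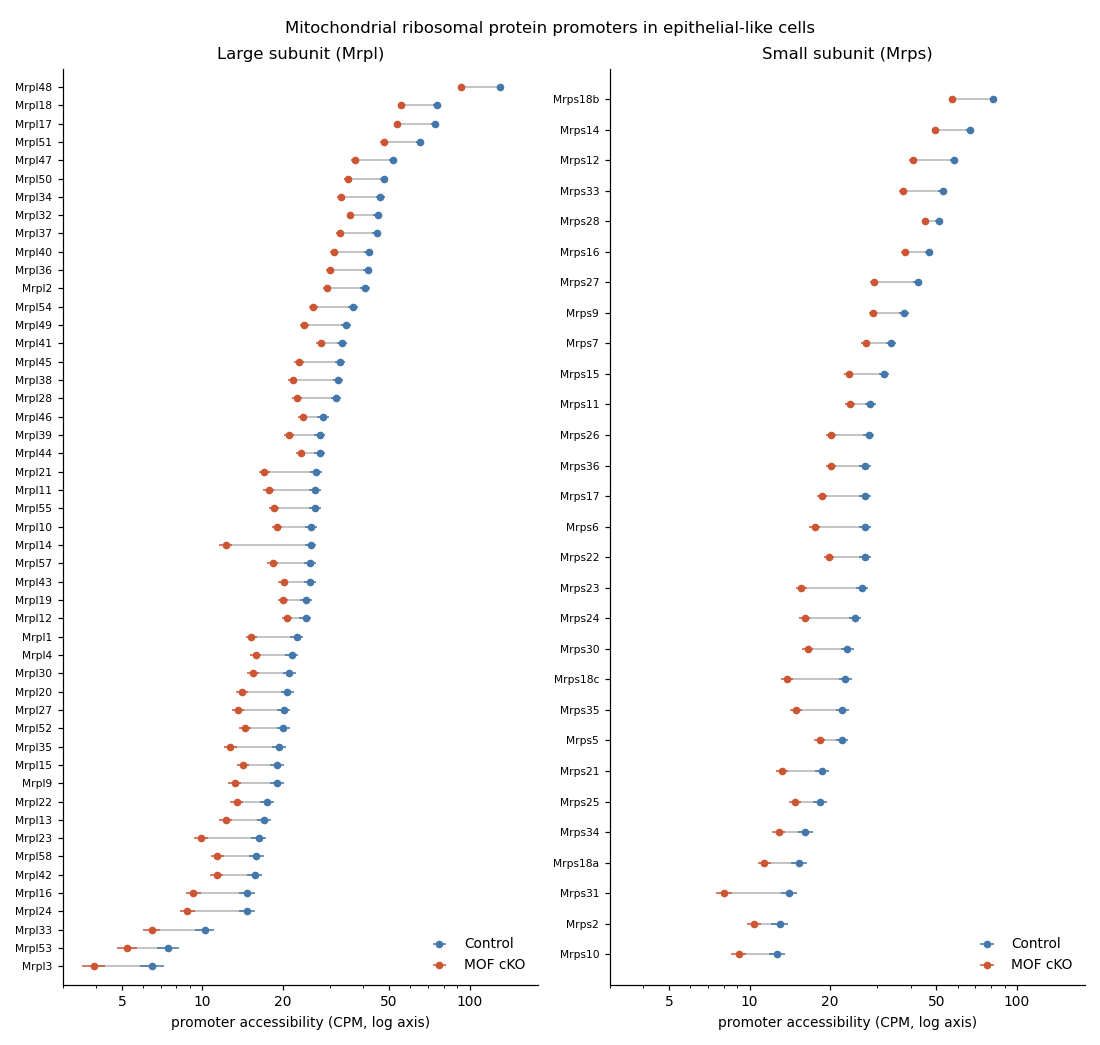
Accessibility of every member promoter in epithelial-like cells (CPM, log axis) for large subunit genes (left) and small subunit genes (right), with Control in blue and MOF cKO in red. Bars are 95% Poisson intervals (counting error only). The MOF cKO point lies left of the Control point for all 78 members on this scale, most clearly for Mrpl14 (25.4 to 12.2 CPM) and least for Mrps28 (51.3 to 45.3 CPM).

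In epithelial-like cells, members ranged from 6.51 to 130.4 CPM in Control (median 26.4) and from 3.92 to 93.0 CPM in MOF cKO (median 18.8). On the CPM scale all 78 were lower in MOF cKO, where 85.8% of all promoters were, but 60 were lower and 18 higher when scaled to the median of all promoters (50.01% of all promoters lower), and 77 were lower as sites per cell (77.8% of all promoters). All 78 had a CPM interval below 0, where 78.7% of all promoters did, many of them of low counts. Of the 4285 promoters with a Control level within the members' quartiles, 4190 were lower and 4120 had an interval below 0. So had 78 of 81 ETC and ATP synthase promoters and 78 of 78 cytosolic ribosomal protein promoters, so these counts are not particular to the members. The median change of the members was -0.47 (quartiles -0.54 and -0.42), which is 0.058 log2 units below that of all promoters. No member had an interval above 0, where 9.16% of all promoters and 56 of the 4285 of like level had one. 1 member was at or below 1/2 of Control, where 2.51% of all promoters were, and none had risen 2-fold, where 2.21% of all promoters had.

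The changes of the members had an SD of 0.15 log2 units across genes, against 0.48 for all promoters, which include many of low counts. Their quartiles of -0.54 and -0.42 were about as close as those of ETC and ATP synthase promoters (-0.54 and -0.41) and cytosolic ribosomal protein promoters (-0.60 and -0.46). Of the members, 57 fell between the 25th and 75th percentile of all promoters. Below the 25th percentile lay 20 members and above the 75th 1. The median half-width of a member's counting interval was 0.098, so part of the spread is counting error. The interval of 40 members held the all-promoter median of -0.42, that of 27 (34.6%) lay below it and that of 11 (14.1%) above it. Among all promoters 29.4% lay below and 31.7% above.

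Promoters of like openness had similar medians. The 4285 promoters whose Control level lay within the members' quartiles had a median change of -0.45, and CpG-rich promoters had a median of -0.44. 2 other sets of genes for abundant complexes were set beside the members. The 81 ETC and ATP synthase promoters had a median of -0.48, and the 78 cytosolic ribosomal protein promoters -0.53. The ETC set is not fully separate from the members, since Ndufs6 and Ndufb5 share regions with Mrpl36 and Mrpl47. Pooled over their regions, the members changed by -0.46 (interval -0.47 to -0.45), the ETC and ATP synthase genes by -0.46 (-0.47 to -0.45) and the cytosolic ribosomal protein genes by -0.52 (-0.53 to -0.51), whose interval lay below those of the others. The 4285 promoters of like level changed by -0.428 (-0.430 to -0.427) and the CpG-rich ones by -0.426 (-0.427 to -0.425), both above the members' interval. All of these pooled intervals leave out the spread between genes. Of these sets 57.6% and 55.2% lay below the all-promoter median, against 76.9% of members. Among ETC and ATP synthase promoters 70.4% did, and among cytosolic ribosomal protein promoters 88.5%.

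**Figure D3:**
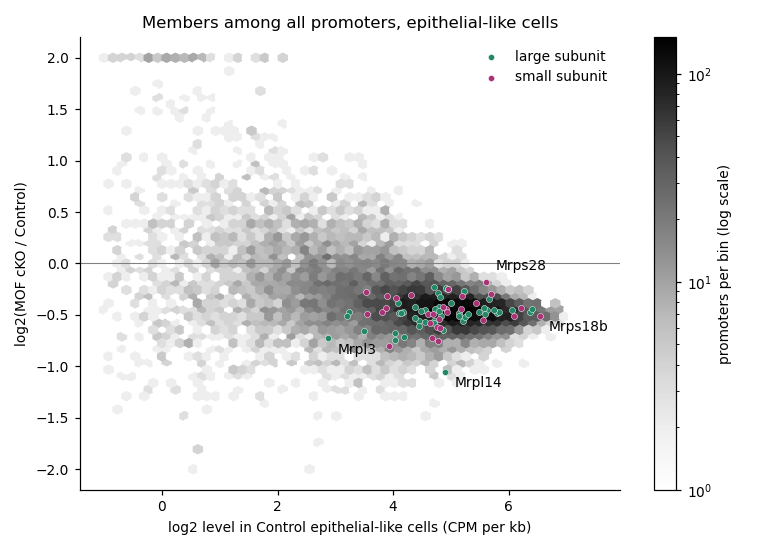
Change in epithelial-like cells (log2(MOF cKO / Control), y axis) against level in Control (log2 CPM per kb, x axis) for large subunit (green) and small subunit (magenta) members over all promoters (grey bins, log colour scale). 114 promoters at or below 0.5 CPM per kb are not drawn, and 100 beyond a change of 2 are drawn at that limit. The members sit within the dense band of open promoters, around their median of -0.47, with Mrpl14 below it at -1.05.

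The large and small subunits had similar changes. The 49 large subunit promoters had a median change of -0.47 (quartiles -0.56 and -0.44) and the 29 small subunit promoters -0.47 (-0.54 and -0.33), a difference of -0.0015. Over the alternatives tried this difference ran from -0.07, in the members alone in their region, to 0.0093, without the cells of highest doublet score. Pooled, the large subunit went from 1539 to 1112 CPM (log2 change -0.47, -0.48 to -0.46) and the small subunit from 917 to 672 CPM (-0.45, -0.46 to -0.43), and these intervals overlapped. Below the all-promoter median lay 40 of 49 large and 20 of 29 small subunit members. Mrps30 and Mrps18a were found in the large subunit in later structures despite their names, and Mrps36 was later assigned to the 2-oxoglutarate dehydrogenase complex. With Mrps30 and Mrps18a moved and Mrps36 left out, the medians were again -0.47 and -0.47, and the difference was -0.00037.

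**Figure D4:**
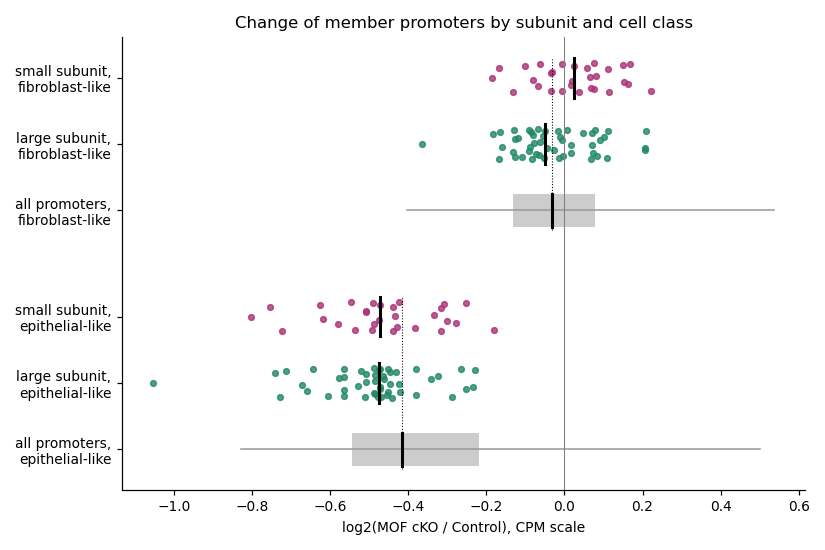
Change (log2(MOF cKO / Control), x axis) of each large subunit (green points) and small subunit (magenta points) member in epithelial-like and fibroblast-like cells, with the median as a black bar. Grey boxes and lines give the quartiles and the 5th to 95th percentiles of all promoters. In epithelial-like cells both subunits centre on -0.47, below the all-promoter median of -0.42 (dotted line), and in fibroblast-like cells both lie around 0 on this CPM scale.

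By evolutionary origin the medians were also close. The 48 members with a counterpart in the bacterial ribosome had a median change of -0.47 and the 29 that have none -0.48, with Mrps36 in neither list. By place in the large subunit, the 9 proteins of the central protuberance had a median of -0.48, the 7 around the exit of the peptide tunnel -0.47, and the 3 of the GTPase centre and stalk -0.42. The 29 members with an ETS core had a median of -0.48, and 26 of them lay below the all-promoter median. The 49 members without one had a median of -0.46, and 34 lay below. All 2310 promoters with an ETS core had a median of -0.45, and 60.4% of them lay below the all-promoter median. Pooled, the members with the core changed by -0.49 (-0.51 to -0.48). Those without it changed by -0.44 (-0.46 to -0.43). These intervals did not overlap, but they cover counting error only and not the spread between genes (SD 0.15 over all members). A difference by ETS core was not tested. The 44 members alone in their region had a median of -0.48 and the 34 that shared one -0.46.

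Mrpl14 showed the largest decrease. It encodes a conserved protein of the large subunit, and its region also serves Tmem63b, which starts in the opposite direction. It had 25.4 CPM (24.1 to 26.7) in Control and 12.2 CPM (11.6 to 12.9) in MOF cKO, a log2 change of -1.05 (-1.16 to -0.94), at the 2nd percentile of all promoters. Mrpl14 was also the lowest member in fibroblast-like cells, with 30.8 CPM in Control and 23.9 in MOF cKO (-0.36, -0.52 to -0.21). Within the epithelial-like clusters of at least 500 cells, Mrpl14 had 21.6 and 28.8 CPM in the 2 of Control and 10.7, 12.5 and 14.8 CPM in the 3 of MOF cKO. The values of the clusters did not overlap, though they also differed within a library.

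The next largest decreases were in both subunits. Mrps31, found only in mitochondrial small subunits, had 14.04 CPM (13.1 to 15.0) in Control and 8.05 (7.51 to 8.62) in MOF cKO, a change of -0.80 (-0.94 to -0.66). Mrps23, likewise particular to mitochondria, had 26.4 and 15.6 CPM (-0.75, -0.86 to -0.65). Mrpl24, a conserved protein beside the peptide tunnel exit, had 14.7 and 8.80 CPM (-0.74, -0.88 to -0.60). Mrpl3 had 6.51 and 3.92 CPM (-0.73, -0.93 to -0.52). In these 4 genes the interval of the change lay below 0, as it did in all 78 members and in 78.7% of all promoters. None of the 4 had an interval below 0 in fibroblast-like cells, where their changes ran from -0.11 to 0.21.

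Other members kept more of their Control level. Mrps28 had 51.3 CPM (49.4 to 53.1) in Control and 45.3 (44.0 to 46.6) in MOF cKO, a change of -0.18 (-0.25 to -0.11), at the 78th percentile of all promoters. Mrpl12, a stalk protein that is also known to bind the mitochondrial RNA polymerase, had 24.3 and 20.8 CPM (-0.23, -0.33 to -0.13). Mrpl44, which resembles RNase III enzymes, had 27.5 and 23.3 CPM (-0.23, -0.33 to -0.14), in a region that also serves Wdfy1. The common region of Mrpl46 and Mrps11 had 28.3 and 23.8 CPM (-0.25, -0.34 to -0.16). All of these lie above the all-promoter median, and all would be higher in MOF cKO on a scale set to that median.

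Members with known roles fell across this range. Mrps12 had 58.0 CPM in Control and 40.8 in MOF cKO (-0.51, -0.57 to -0.44). Mrps2 (13.0 and 10.4 CPM, -0.32) and Mrps7 (33.8 and 27.2 CPM, -0.32), conserved small subunit proteins, changed less, and Mrps22 (27.0 and 19.9 CPM, -0.44), altered in some inherited mitochondrial diseases, lay near the median. Mrps27, an RNA-binding repeat protein that shares its region with Ptcd2, had 42.6 and 29.1 CPM (-0.55). The S18-type paralogs were unequal. Mrps18c had 22.8 and 13.8 CPM (-0.72, -0.83 to -0.61), Mrps18b 81.3 and 57.1 CPM (-0.51, -0.56 to -0.45) and Mrps18a 15.3 and 11.4 CPM (-0.43, -0.56 to -0.30). Among these paralogs the interval of Mrps18c lay below those of the others, and the intervals of Mrps18a and Mrps18b overlapped. The regions of Mrps18c and Mrps18b also serve Helq and Ppp1r10, so their values cannot be assigned to the paralogs alone. Those of Mrps12 and Mrps7 also serve Sars2 and Gga3.

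In the large subunit, the stalk protein Mrpl10 had 25.5 and 19.0 CPM (-0.42, -0.52 to -0.33), and Mrpl11 of the GTPase centre had 26.5 and 17.7 CPM (-0.58, -0.68 to -0.48). Around the tunnel exit, Mrpl23 had 16.3 and 9.92 CPM (-0.71, -0.84 to -0.58) and Mrpl45, which lies next to the inner membrane, had 32.7 and 23.0 CPM (-0.51, -0.60 to -0.42). Mrpl58, a peptidyl-tRNA hydrolase that frees stalled ribosomes, had 15.9 and 11.4 CPM (-0.48, -0.61 to -0.36). Mrps30 had 23.2 and 16.5 CPM (-0.49, -0.60 to -0.39), and Mrps36 had 27.1 and 20.2 CPM (-0.42, -0.52 to -0.33). Apart from Mrpl23 and Mrpl11, the intervals of the genes in this paragraph held the all-promoter median or ended just below it.

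The decrease was seen in each MOF cKO epithelial-like cluster of at least 500 cells, but was not clear in the cluster of 79. In 77 of 78 members every MOF cKO cluster of at least 500 cells was below every Control cluster of that size, where 65.9% of all promoters showed this. Clusters of 1 library are not replicates. The exception, named here after its values were seen, was Mrps5, with 19.3 and 26.1 CPM in the Control clusters and 17.3, 20.7 and 17.6 CPM in the MOF cKO clusters. In the MOF cKO cluster of 79 cells the pooled member level was 2359 CPM (2261 to 2459). That interval held the 2405 and 2443 CPM of the Control clusters of 769 and 509 cells. The MOF cKO clusters of at least 500 cells had 1691, 1799 and 1842 CPM. Without the shallow and the deep Control cluster, the median of the members was -0.47, against -0.40 for all promoters.

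In fibroblast-like cells, which Krt14-Cre is not expected to reach, members centred on 0. The median level was 28.1 CPM in Control and 27.5 in MOF cKO, and the median change was -0.01, against -0.03 for all promoters. As sites per cell these medians were -0.39 and -0.41, and all 78 members were lower, as were 92.5% of all promoters. On the CPM scale 44 of the 78 were lower in MOF cKO, where 58.6% of all promoters were. The interval lay below 0 in 7 members, where 18.2% of all promoters had this, and above 0 in 5, where 10.2% of all promoters did. None was at 1/2 or less (0.794% of all promoters) and none rose 2-fold (1.9% of all promoters). The 66 remaining intervals held 0. The median half-width of a member's interval in this class, 0.16, sets what this depth can show. The large subunit had a median of -0.05 and the small subunit 0.02, with pooled changes of -0.04 (-0.06 to -0.02) and -0.00038 (-0.03 to 0.03). The libraries were unevenly spread over the fibroblast-like clusters, which held 343, 185 and 68 Control cells and 48, 641 and 526 MOF cKO cells. Between clusters of at least 150 cells, 19 members were lower in every MOF cKO cluster (23.3% of all promoters). In 13 members every MOF cKO cluster was higher (9.64% of all promoters).

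The highest changes in fibroblast-like cells were those of Mrps25, with 19.0 CPM in Control and 22.2 in MOF cKO (0.22, 0.04 to 0.41), and Mrpl4, with 20.03 and 23.2 CPM (0.21, 0.03 to 0.39). After Mrpl14, the lowest was Mrps35, with 26.7 and 23.5 CPM (-0.18, -0.35 to -0.02). On the CPM scale all 78 members had a lower change in epithelial-like than in fibroblast-like cells, as did 85.7% of all promoters, whereas as sites per cell 25 members (20.8% of all promoters) did, and with median-of-ratios factors 55 members (50.6%). The member medians as sites per cell were -0.29 in the epithelial-like class and -0.39 in the fibroblast-like class, so the order of the classes turned round. That scale counts the 322 cells of the shallow Control cluster like any others. Among epithelial-like cells with at least 5000 sites, the median cell had 170 member sites in Control and 126 in MOF cKO. In fibroblast-like cells these medians were 168 and 126, so with that cut the classes fell nearly alike per cell, but at unlike depth. The median of these epithelial-like cells had 73430 sites in Control and 85048 in MOF cKO. The median of these fibroblast-like cells had 68772 and 54108, so values per cell also carry differences in depth between the libraries. Across the 78 genes the changes in the cell classes had a Spearman correlation of 0.10, which is weak and is given as a description only. The same libraries underlie both classes. In 5 members, where 5.53% of all promoters showed this, the CPM interval lay below 0 in epithelial-like and above 0 in fibroblast-like cells, which held for 2 members (1.85% of all promoters) with median-of-ratios factors, for 0 (0.337%) as sites per cell and for 0 (4.002%) with the total of each library's own peaks.

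The share of promoter sites needs no scaling between libraries. In epithelial-like cells, members held 0.640% of promoter sites in Control (exact binomial interval 0.637 to 0.644) and 0.612% in MOF cKO (0.609 to 0.615), a log2 ratio of -0.07 (-0.08 to -0.06). Per cell, among cells with at least 5000 sites, the median share was 0.640% (quartiles 0.593 and 0.696) in Control and 0.611% (0.551 and 0.671) in MOF cKO. The median cell had 170 and 126 member sites, so counting error enters the quartiles. By cluster, the shares were 0.655%, 0.630% and 0.647% in the Control clusters of 769, 509 and 322 cells and 0.622% in the deep one with raised fibroblast markers. The MOF cKO clusters of 1214, 718, 580 and 79 cells had 0.603%, 0.628%, 0.617% and 0.568%. The Control cluster of 509 cells also held 24 MOF cKO cells, with a share of 0.605% (0.576 to 0.635), an interval that overlapped that of its Control cells. Promoters took 35.1% of the sites of these 24 cells, against 38.7% in the Control cells of that cluster and 28.0% to 29.8% in the 3 largest MOF cKO clusters. In the MOF cKO cluster of 79 cells they took 41.6%. The clusters of the libraries overlapped through the deep Control cluster only, although the counting intervals of 0.630% (0.625 to 0.636) and 0.628% (0.622 to 0.634) overlapped as well, and that of the shallow Control cluster (0.619 to 0.676) overlapped those of the MOF cKO clusters of 718 and 580 cells. In fibroblast-like cells the shares were 0.611% (0.606 to 0.617) and 0.617% (0.612 to 0.621), with intervals that overlapped.

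Immune-like cells had the highest values, with 0.678% (0.655 to 0.702) in 46 Control cells and 0.708% (0.697 to 0.718) in 279 MOF cKO cells. Mural-like cells had 0.564% and 0.611%, in 17 and 71 cells, with intervals below that of the Control immune-like cells. Muscle-like cells had 0.641% (0.612 to 0.672) and 0.659% (0.625 to 0.693), in 23 and 20 cells, with intervals that overlapped it. Both of these small classes also had 6 of 10 fibroblast markers raised. The large subunit genes took 62.7% and 62.3% of the member sites in Control and MOF cKO epithelial-like cells, and between 61.7% and 64.8% in every other class and library.

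**Figure D5:**
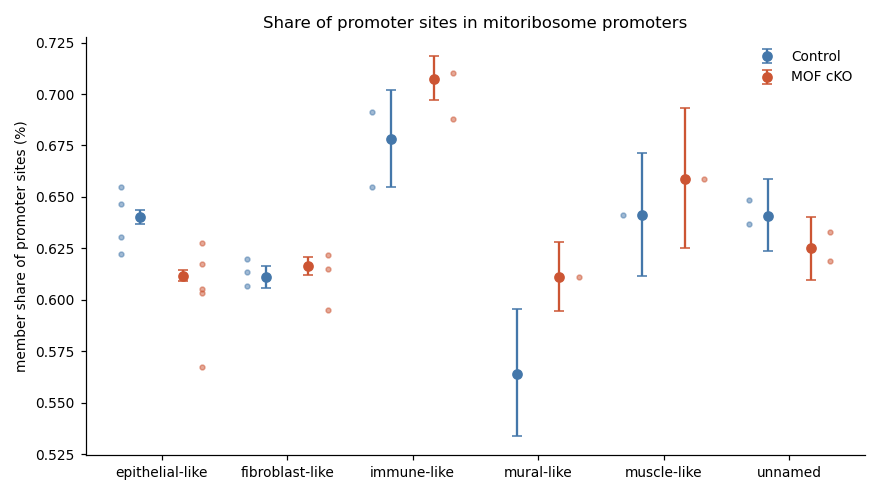
Percent of promoter sites that lay in member regions (y axis) by cell class (x axis) for Control (blue) and MOF cKO (red). Large points are classes with 95% exact binomial intervals, and small points beside them are single clusters of at least 20 cells. In epithelial-like cells the class values are 0.640% and 0.612%, with clusters from 0.622% to 0.655% in Control and from 0.568% to 0.628% in MOF cKO, and immune-like cells are highest.

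The rest of the mitochondrial translation apparatus was followed in a list of 60 symbols, of which 59 had a promoter value. Among them, Sars2 shares its region with the member Mrps12, so its value is that of Mrps12 counted again. Of the 59, 58 (98.3%) had an interval below 0 in epithelial-like cells, against 78.7% of all promoters and 4120 of the 4285 of the members' level. An interval above 0 was seen in 1 (1.69%), against 9.16% of all promoters and 56 of those 4285. The median change was -0.48, against -0.42 for all promoters. Medians were -0.54 for 13 translation factors, -0.47 for 17 mitochondrial aminoacyl-tRNA synthetases, -0.49 for 24 assembly factors and -0.48 for the 5 ribosomal proteins under other names. In fibroblast-like cells the 59 had a median of 0.0077.

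The largest decreases among them were those of Mtrf1, a peptide chain release factor, with 9.42 CPM in Control and 4.13 in MOF cKO (-1.19, -1.373 to -1.003), and of Gtpbp10, a GTPase of large subunit assembly, with 24.4 and 12.7 CPM (-0.94, -1.05 to -0.83). Tufm, the elongation factor that brings aminoacyl-tRNA, had 18.9 and 10.3 CPM (-0.87, -0.997 to -0.751). Mtif2, the initiation factor, had 16.1 and 12.4 CPM (-0.38, -0.50 to -0.26), and Gfm1, the translocation factor, had 17.8 and 15.1 CPM (-0.24, -0.35 to -0.12). Dap3, a small subunit protein under another name, was close to its Control level, with 35.1 and 33.1 CPM (-0.09, -0.16 to -0.01), and was higher in MOF cKO fibroblast-like cells (0.35, 0.24 to 0.46). Mtg2, a large subunit GTPase, was the one that was higher in MOF cKO, from 0.751 to 2.08 CPM (1.47, 1.001 to 1.977), on 519 sites in all.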

How the data were processed

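Per the labels and methods, single cells from E16.5 back skin were profiled with a 10x Genomics scATAC kit. The values deposited by the authors are raw counts, the number of Tn5 cut sites in each peak of each barcode. The submitters' processing notes name Cell Ranger ATAC and Cell Ranger ARC with mm10, and the authors' peaks and cells were called in each library separately. The libraries held 169641002 (Control) and 324310197 (MOF cKO) sites in 249679 and 340134 peaks, and 2481 and 4348 barcodes with at least 1000 sites were kept.

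Peaks were merged, and the 214119 regions with a peak from each library were used. A promoter region lay within 500 bp of a protein-coding start site (GENCODE, GRCm38), and a gene with several was given their sum. Cells were clustered by TF-IDF, singular vectors and Leiden at resolution 1, with no alignment of the libraries. A cluster was assigned the class with the highest mean scaled marker level, and the name was kept where at least 3 markers of that class were raised 2-fold, no other class had more markers among the top 10 genes, and a shallow cluster had a marker of its class there. Doublets were scored from simulated pairs and left in, except in an alternative without the 10% of highest scores. Sites were summed per class and library. Since most values were even, intervals (exact binomial, Poisson and conditional binomial) used the number of fragments, 1 for every 2 sites. Changes need at least 20 sites over both libraries. For a median, the interval runs from the median lower to the median upper bound of its genes. The calculation was tested on simulated counts in which 200 genes had been changed.

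Named members were, among those with at least 500 sites, the 5 lowest and 5 highest changes and the 3 highest and 3 lowest levels in epithelial-like cells, the 2 lowest and 2 highest changes in fibroblast-like cells, and 18 with known roles. The members, lists and rules were chosen with earlier results of these data known. Python 3.11.15, numpy 2.4.6, scipy 1.17.1, scikit-learn 1.9.0, leidenalg 0.10.2 and pysam 0.24.0 were used. Alternatives are given in the closing section.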

Additional observations from a re-analysis of the deposited data

Results flagged for a closer look

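On the CPM scale, the counting interval of 5 members lay below 0 in epithelial-like cells and above 0 in fibroblast-like cells, which 5.53% of all promoters also showed. The log2 changes in epithelial-like and fibroblast-like cells were -0.74 and 0.21 for Mrpl24, -0.45 and 0.21 for Mrpl30, -0.45 and 0.21 for Mrpl4, -0.54 and 0.16 for Mrps17, and -0.31 and 0.22 for Mrps25. These opposite signs depend on the scale. As sites per cell the fibroblast-like changes of the 5 ran from -0.21 to -0.16 and no member showed the pattern. With the total of each library's own peaks the fibroblast-like intervals of all 5 held 0. With median-of-ratios factors only Mrpl24 (-0.32 and 0.24) and Mrps17 (-0.12 and 0.19) showed it, while the epithelial-like changes of Mrpl30 (-0.03), Mrpl4 (-0.03) and Mrps25 (0.11) had intervals that held 0. With 1 library per genotype the difference between the cell classes was not tested, and the median of all promoters also differed between them.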

How the results depend on the processing

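No paired analysis was possible because each genotype had 1 library. Of 71 values of the summary results under alternatives, 65 lay within the counting interval set around the reported value, but for medians that interval is as wide as for a single gene, and the scalings repeat some values by construction, so this count says little of stability. The member change relative to all promoters ran from -0.09 to -0.05 in epithelial-like and from -0.00036 to 0.03 in fibroblast-like cells. The difference between large and small subunit, -0.0015 as reported, was -0.07 without members whose region serves another gene, -0.04 with binarised counts and -0.03 with a window of 1000 bp. The level of the members relative to all promoters, 1.34 as reported, moved to 1.27 with a promoter window of 100 bp, 1.45 with 1000 bp, 1.27 with binarised counts and 1.26 without members whose region serves another gene. The log2 ratio of the shares of promoter sites, -0.07 as reported, moved to -0.054 with the nearest region only. With the shorter core GGAAG, 83.3% of members held a match, beside 72.3% of all promoters. The change of scale leaves the difference between members and all promoters as it is by construction, and shifts all promoters together: their median change in the epithelial-like class was -0.56 with the total of each library's own peaks, -0.23 per cell and 0 with median-of-ratios factors. With those factors 8 named members were higher in MOF cKO, namely Mrpl12 (0.19), Mrpl44 (0.18), Mrpl46 and Mrps11 (0.16), Mrps2 (0.10), Mrps25 (0.11), Mrps28 (0.24) and Mrps7 (0.10), and per cell Mrps28 was at 0.0024. The other 375 of 384 values of named members kept their sign. The set without the shallow and the deep epithelial-like cluster was chosen after seeing the data. Depth limits single members to about 0.098 log2 units in the epithelial-like and 0.16 in the fibroblast-like class.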
